A study of Mus musculus with 6 samples.

Results

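Small leucine-rich proteoglycans (SLRPs) and tenascins are secreted proteins of the extracellular matrix. Of the 56748 genes in the deposited count table, 10 are described here: the SLRP genes *Aspn*, *Bgn*, *Dcn*, *Fmod*, *Lum*, *Ogn* and *Prelp* and the tenascin genes *Tnc*, *Tnn* and *Tnxb*. The genes were taken by symbol, and all 10 symbols were found. They were chosen by their role in the matrix and with earlier fold changes between LiCl and control from these same counts known. Their levels and differences are therefore given as a description, and no p-value is given for them.

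The samples came from wildtype mouse embryos of the NMRI strain. Ureters were explanted at E12.5 and kept in culture for 18 h, with 15 mM LiCl in 3 samples and with water as control in the other 3. LiCl inhibits the kinase GSK3B and thereby activates canonical WNT signaling. The comparison asks how the RNA of the whole ureter explant changes with LiCl, and other effects of LiCl cannot be told apart. In longer LiCl cultures, the study saw the WNT target *Axin2* newly in the epithelium by in situ hybridization. Its expression in the mesenchyme appeared largely unchanged there. The culture medium of both groups was otherwise the same, and the labels do not say whether the 3 samples of a group were separate cultures, so the p-values given for other genes measure the spread between these samples, which may be technical.

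SLRPs have a protein core of leucine-rich repeats, which mostly carries chains of chondroitin, dermatan or keratan sulfate, and many bind collagen and limit the width of its fibrils. Some also bind TGF-beta family ligands and other growth factors. Tenascins are large multidomain glycoproteins with EGF-like and fibronectin type III repeats. Tenascin-C is typical of embryonic and healing mesenchyme, whereas tenascin-X is bound to collagen in mature connective tissue, and its loss in humans gives a form of Ehlers-Danlos syndrome. In the fetal ureter, such matrix is mainly laid down by the mesenchymal wall.

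The total count per sample lay between 28473436 and 31266945, and the depths of both groups overlapped. Markers of the ureteric epithelium and of the ureteric mesenchyme were present in all samples, with 8 of 8 genes of each list above a mean of 1 CPM. Values per sample are CPM, counts scaled to a common library size with TMM factors, unless FPKM is named. FPKM is a level per gene length and serves here to compare genes with each other. Orders, sums, shares and ratios between genes depend on the length used, and the transcripts present in the explants were not determined. In the GENCODE M21 annotation, merged exons span 6099 bases over 8 transcripts in *Bgn*, 5838 over 5 in *Dcn* and 2448 over 1 in *Lum*. A gene that mainly uses a shorter transcript than the length assumed is understated. For 1 gene alone, the smallest p that an exact permutation test of 3 samples against 3 can reach is 0.1.

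In this set, most SLRPs were lower and both tenascins that passed the filter on low counts were higher after LiCl. *Tnr*, a tenascin gene outside the set, fell (log2 fold change -1.07, adjusted p = 0.0093 in edgeR). Of the 10 genes, 9 passed edgeR's filter on low counts, with *Tnn* below it. At an adjusted p under 0.05 over all 18188 genes tested, 6 of these were lower and 2 higher, whereas *Prelp* was neither. Over all genes tested, 22.4% were lower and 21.1% higher by this rule. With a log2 fold change beyond 1 as an additional threshold, 5 were lower and 2 higher, against 4.59% and 2.74% of all genes. The 3 values of each group did not overlap in 6 genes that were lower and 2 that were higher with LiCl, against 27.8% and 26.4% of all genes. Since the genes were chosen on this comparison, nothing is read from these counts. In whole explants, fewer cells of a type and less RNA per cell cannot be told apart.

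**Figure D1:**
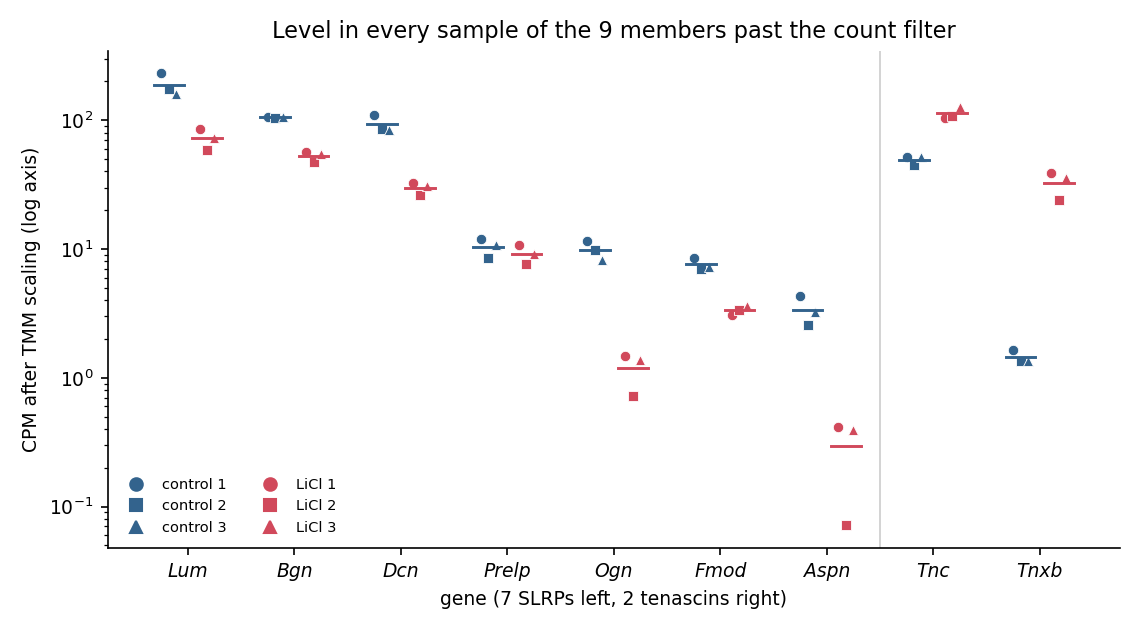
Level of the 9 genes that passed the filter on low counts, as CPM on a log axis, in each of the 3 control samples (blue) and the 3 LiCl samples (red), with symbols for the replicate number and a bar for the mean. The groups are apart in each gene except *Prelp*, and LiCl replicate 2 is the lowest LiCl sample in 7 of the 9.

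*Aspn* and *Ogn* had the strongest decrease. *Aspn* encodes asporin, a class I SLRP that lacks a glycosaminoglycan chain and binds collagen and TGF-beta. Its level was 4.31, 2.58 and 3.23 CPM in control replicates 1 to 3, and 0.418, 0.0716 and 0.390 CPM in LiCl replicates 1 to 3. All LiCl samples lay below all controls, and the highest LiCl sample was 6.16-fold below the lowest control. The mean was 11.5-fold lower, with a log2 fold change of -3.48 ± 0.41 (SE), the second lowest of all 18188 genes. These levels rest on few reads, 80 to 124 counts in the controls and 13, 2 and 11 in the LiCl samples. With LiCl replicate 2 as the only LiCl sample, the log2 fold change was -5.47, and leaving out any 1 sample gave values from -3.84 to -3.04.

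*Ogn* encodes osteoglycin, a class III SLRP found around collagen fibrils. The controls held 11.4, 9.79 and 8.22 CPM, and the LiCl samples 1.48, 0.716 and 1.38 CPM. The groups were again apart, by 5.56-fold between the nearest samples, and the mean was 8.23-fold lower (log2 fold change -3.03 ± 0.23, SE). It ranked 18 of 18188 from the lowest log2 fold change. Counts were 252 to 329 in the controls and 20 to 46 in the LiCl samples, so *Ogn* is better supported by reads than *Aspn*.

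Both genes lie close together on chromosome 13, with *Omd* between them, and their promoters are given because both were much lower with LiCl. The sequences are from RefSeq on GRCm38.p6, an older build than the GRCm39 of the counts, and from the reference strain rather than NMRI. Each runs from 250 bases before to 50 bases after the start site. Capitals mark the letters TATAAA, the core of a TATA box, searched on either strand and at any position. A match is not taken as a working TATA box. The *Aspn* window is on the plus strand at chr13:49544193-49544492 and that of *Ogn* on the plus strand at chr13:49607765-49608064.
Aspn: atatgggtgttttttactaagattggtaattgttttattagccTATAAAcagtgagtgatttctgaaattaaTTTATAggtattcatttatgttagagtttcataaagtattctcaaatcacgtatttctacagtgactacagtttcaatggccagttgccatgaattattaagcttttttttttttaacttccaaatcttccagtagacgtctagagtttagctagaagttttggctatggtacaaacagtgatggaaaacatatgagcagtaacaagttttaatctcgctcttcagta
Ogn: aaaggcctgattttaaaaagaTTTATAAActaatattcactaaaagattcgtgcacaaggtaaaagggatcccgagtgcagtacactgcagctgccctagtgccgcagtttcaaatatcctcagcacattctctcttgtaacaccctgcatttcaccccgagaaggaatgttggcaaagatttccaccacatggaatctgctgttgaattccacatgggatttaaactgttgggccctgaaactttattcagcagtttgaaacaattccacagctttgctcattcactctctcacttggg
In *Aspn*, TATAAA was at positions -207 to -202 from the start site and its reverse complement at -178 to -173. In *Ogn*, the matches on both strands overlapped, at -227 to -222 and at -229 to -224. Of 32851 promoters of the same length, 13.6% held these letters on either strand. Both windows are poor in G and C, 31% in *Aspn* and 42.3% in *Ogn*, compared with a median of 52.7% over all promoters. Only 1.28% of promoters had a lower share than that of *Aspn*. Neither window held CTTTGA, the core of the motif bound by TCF and LEF, the DNA-binding partners of beta-catenin, nor TGANTCA, the motif of AP-1.

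*Dcn* and *Lum*, which lie next to each other on chromosome 10, were lower by a smaller factor and from a much higher level. *Dcn* encodes decorin, the prototype SLRP, which binds fibrillar collagen, TGF-beta and receptor tyrosine kinases. Its level was 110.0, 86.0 and 83.7 CPM in the controls and 32.6, 26.2 and 30.8 CPM with LiCl. Every LiCl sample was thus below every control, with a mean 3.12-fold lower and a log2 fold change of -1.64 ± 0.12 (SE).

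*Lum* encodes lumican, a keratan sulfate SLRP best known for the spacing of collagen fibrils in the cornea. It had 231, 175 and 159 CPM in the controls and 85.0, 58.5 and 72.7 CPM in the LiCl samples. The mean was 2.61-fold lower (log2 fold change -1.38 ± 0.16, SE). Control replicate 1 stood above the other controls, and the coefficient of variation was 20.1% in the controls and 18.4% in the LiCl samples. Without 1 sample, the log2 fold change ranged from -1.52 to -1.21.

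*Bgn* encodes biglycan, a class I SLRP with 2 glycosaminoglycan chains, and was the most even of the set in the controls. The controls had 107, 104 and 106 CPM, a coefficient of variation of 1.22%, and the LiCl samples 57.0, 47.5 and 54.7 CPM. LiCl samples were all lower, with the mean at 0.501 of the control. The log2 fold change of -0.996 ± 0.067 (SE) fell just short of the threshold of -1, and it passed this threshold in some settings.

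*Fmod* encodes fibromodulin, a class II SLRP of tendon and cartilage that binds collagen type I. It was measured at 8.49, 6.99 and 7.28 CPM in the controls and at 3.06, 3.37 and 3.58 CPM with LiCl. The groups were apart by 1.95-fold at their nearest samples, and the log2 fold change was -1.19 ± 0.13 (SE). This was the only SLRP in which LiCl replicate 2 was not the lowest LiCl sample.

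*Prelp* was the SLRP whose groups overlapped. It encodes PRELP, a class II SLRP that binds heparan sulfate and anchors basement membranes to collagen. Its controls had 11.9, 8.57 and 10.8 CPM and its LiCl samples 10.7, 7.66 and 9.19 CPM, and the lowest control lay below 2 of the LiCl samples. The log2 fold change was -0.18 ± 0.15 (SE) and ranged from -0.30 to -0.07 when 1 sample was left out. A value this near 0 does not show that *Prelp* was unaffected. In both groups, replicate 2 was the lowest sample and replicate 1 the highest.

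*Tnxb* showed the strongest increase of the set. It encodes tenascin-X, and its control level was low, with 1.64, 1.35 and 1.34 CPM from 47, 42 and 41 counts. With LiCl, 38.7, 24.1 and 35.4 CPM were found, from 1201, 674 and 998 counts. The lowest LiCl sample was 14.8-fold above the highest control, and the mean was 22.7-fold higher. The log2 fold change of 4.50 ± 0.21 (SE) was the seventh highest of all genes tested. It was 4.07 with LiCl replicate 2 alone and 4.37 to 4.69 when 1 sample was left out.

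A part of the *Tnxb* transcripts is not unique. *Tnxa*, a partial copy of *Tnxb* close by on chromosome 17, shares 2.91% of the 100-base words of the *Tnxb* transcripts in the GENCODE M21 annotation. For *Tnxa* itself, 1, 0 and 0 reads were counted in the controls and 3, 1 and 8 in the LiCl samples, far fewer than for *Tnxb*. No word of the other 9 genes was shared with another gene. Exons of *Prelp* overlap with *Gm15851* on the opposite strand over 9.68% of their length, and those of *Tnc* with *8030451A03Rik* over 2.26%, and both partners had at most 14 counts in any sample. The strand setting of the counting is not given in the sources used here.

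*Tnc* encodes tenascin-C, an anti-adhesive protein that is widespread in embryonic mesenchyme. The controls had 51.6, 44.8 and 51.9 CPM and the LiCl samples 105, 108 and 128 CPM. Again, all LiCl samples were higher, and the mean was 2.29-fold higher, with a log2 fold change of 1.20 ± 0.09 (SE). LiCl replicate 3 was the highest sample, above the other LiCl samples, whereas LiCl replicate 1 was the highest in *Tnxb*. *Tnn*, which encodes tenascin-N of bone and tooth matrix, was found with 3, 2 and 1 reads in the controls and with 0, 3 and 0 after LiCl. A count of 0 allows up to 3 counts, so no difference was detectable in *Tnn* at this depth.

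The promoters of both higher tenascins and of *Bgn* are shown because the motif letters searched for differ between them. They are again RefSeq sequences on GRCm38.p6. The *Tnxb* window is on the plus strand at chr17:34670285-34670584, that of *Tnc* on the minus strand at chr4:64046966-64047265 and that of *Bgn* on the plus strand at chrX:73483351-73483650. Capitals mark TGANTCA in *Tnxb*, TATAAA in *Tnc* and CTTTGA in *Bgn*.
Tnxb: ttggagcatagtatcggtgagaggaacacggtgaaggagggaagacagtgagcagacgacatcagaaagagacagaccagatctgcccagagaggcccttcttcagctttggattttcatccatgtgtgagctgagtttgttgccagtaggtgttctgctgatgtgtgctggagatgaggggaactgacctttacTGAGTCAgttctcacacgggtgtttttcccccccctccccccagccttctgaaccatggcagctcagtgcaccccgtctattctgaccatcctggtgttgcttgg
Tnc: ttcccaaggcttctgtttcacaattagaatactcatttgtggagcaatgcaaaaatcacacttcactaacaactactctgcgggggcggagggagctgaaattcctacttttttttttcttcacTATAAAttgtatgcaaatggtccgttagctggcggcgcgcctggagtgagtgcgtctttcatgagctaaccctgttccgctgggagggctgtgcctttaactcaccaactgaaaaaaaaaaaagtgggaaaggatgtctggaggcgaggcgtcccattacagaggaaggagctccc
Bgn: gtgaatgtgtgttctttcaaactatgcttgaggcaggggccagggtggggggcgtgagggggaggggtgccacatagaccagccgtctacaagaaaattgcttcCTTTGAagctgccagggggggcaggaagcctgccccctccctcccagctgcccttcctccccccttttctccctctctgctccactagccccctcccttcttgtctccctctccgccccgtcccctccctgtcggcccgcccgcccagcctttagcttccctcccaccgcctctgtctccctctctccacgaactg
*Tnxb* held TGAGTCA at -55 to -49, letters of the kind TGANTCA that 7.81% of all promoters hold. *Tnc* held TATAAA at -126 to -121. A start site listed downstream gave an overlapping window with the same match. *Bgn* was the only one of the 8 genes with a promoter in the table that held CTTTGA, at -146 to -141, and 16% of all promoters hold it on either strand. *Fmod*, *Prelp* and *Tnn* held none of the 3 motifs, and *Dcn* and *Lum* had no entry. These matches describe letters and do not show binding.

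**Figure D2:**
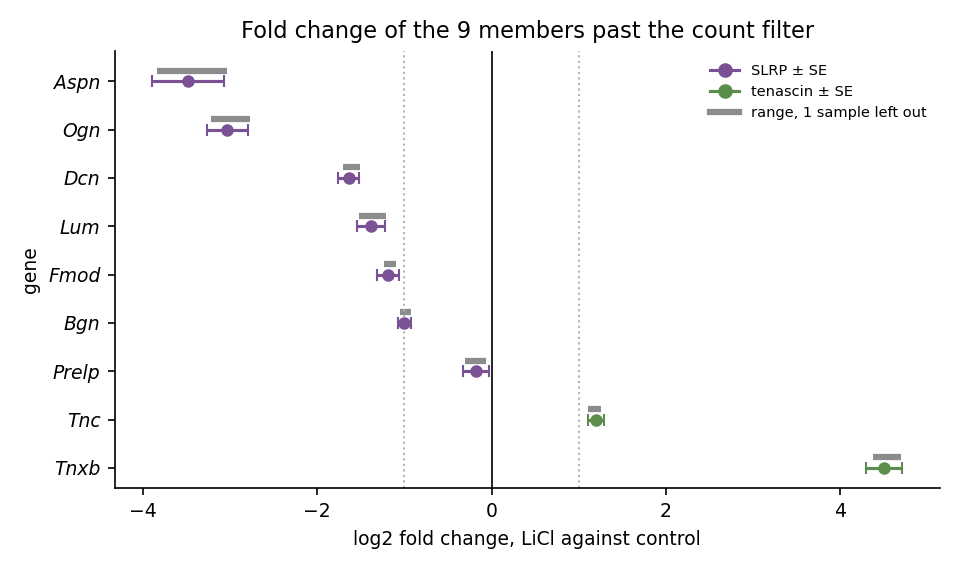
The log2 fold change between LiCl and control of the 9 genes that passed the filter on low counts, with its standard error (points and whiskers, SLRPs violet and tenascins green) and the range when 1 of the 6 samples is left out (grey bars). The dotted lines are at -1 and 1. No leave-one-out range crosses 0, and that of *Bgn* reaches both sides of -1.

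Per gene length, *Lum* was the leading gene of the set in both groups. In the controls it had 76.0 ± 14.8 FPKM (SD, n = 3), followed by *Bgn* with 17.2 ± 0.135 and *Dcn* with 15.8 ± 2.37 FPKM. The ranges of *Bgn* and *Dcn* overlapped, and their order is not settled. *Tnc* came next with 6.29 ± 0.481 FPKM. *Ogn*, *Prelp* and *Fmod* had means of 3.78, 2.85 and 2.27 FPKM, and neighbours in this order overlapped. *Aspn* had 1.42 ± 0.359 FPKM, and *Tnxb* with 0.106 ± 0.0116 FPKM and *Tnn* with 0.0114 FPKM were at the bottom.

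With LiCl, *Lum* still led with 29.5 ± 5.44 FPKM (SD, n = 3), but *Tnc* was now second with 14.6 ± 1.62 FPKM. Its range lay above that of *Bgn* (8.70 ± 0.824 FPKM), which in turn was above that of *Dcn* (5.12 ± 0.574 FPKM). *Prelp* (2.54 FPKM) and *Tnxb* (2.43 FPKM) overlapped. *Fmod* had 1.01, *Ogn* 0.466 and *Aspn* 0.125 FPKM, each apart from its neighbours. By mean, *Tnxb* thus went from place 9 to place 6 and *Ogn* from place 5 to place 8. The places of *Ogn* in the controls and of *Tnxb* with LiCl are not settled, since each overlapped with *Prelp*.

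The balance between the SLRPs and the tenascins of the set was altered accordingly. Genes of both families outside the set are not in these sums. Among them are *Tsku*, with means of 9.02 FPKM in the controls and 9.14 with LiCl, and *Tnr*, with 0.925 and 0.448. The summed FPKM of the 7 SLRPs was 140, 112 and 105 in the controls and 54.3, 39.6 and 48.4 with LiCl. That of the 3 tenascins was 6.65, 5.85 and 6.71 in the controls and 16.3, 15.7 and 19.1 with LiCl. The tenascins made up 4.53% to 5.99% of the sum of both in the controls, and 23.1% to 28.4% with LiCl. In terms of a ratio, the SLRP sum was 18.7 ± 2.73 times the tenascin sum in the controls and 2.79 ± 0.458 times with LiCl (SD, n = 3).

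Within the tenascins of the set, *Tnxb* accounted for 1.65% ± 0.169 of the FPKM in the controls and for 14.2% ± 3.10 with LiCl (SD, n = 3). Within the SLRPs of the set, the share of *Lum* was 63.5% ± 2.57 and 62.0% ± 1.86, and the ranges of both groups overlapped. The share of *Prelp* went from 2.10% to 2.82% in the controls to 5.27% to 5.43% with LiCl. *Ogn* had 3.17% and 0.962%, and *Aspn* 1.18% and 0.249%. The FPKM of *Bgn* was 0.928, 1.16 and 1.22 times that of *Dcn* in the controls and 1.67, 1.74 and 1.70 times with LiCl. By FPKM, the level of biglycan RNA was thus close to that of decorin RNA in the controls and above it in all 3 LiCl samples. The change of this ratio between the groups does not depend on the gene lengths, but its size within a group does.

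**Figure D3:**
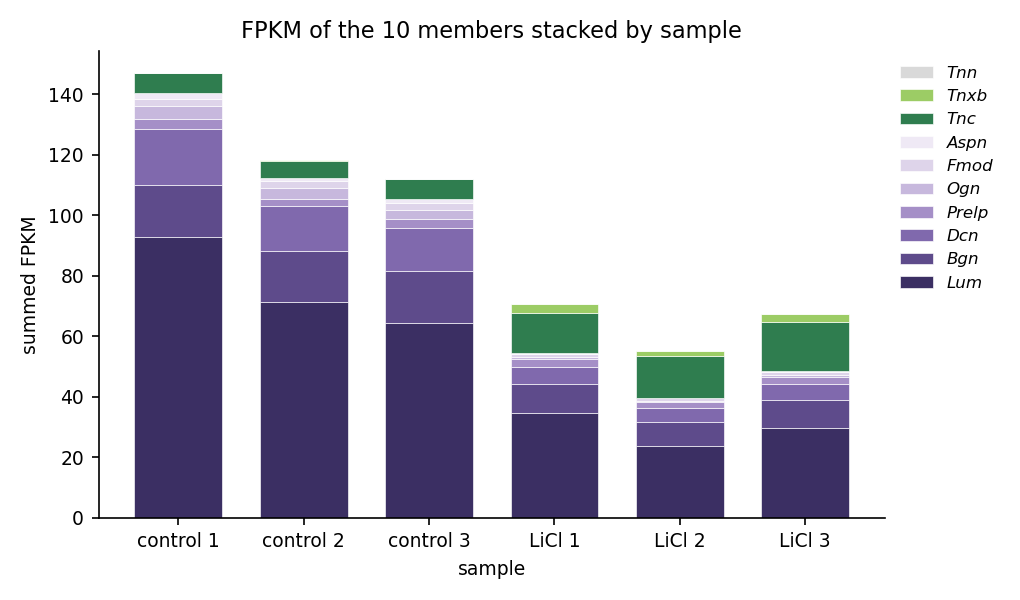
FPKM of the 10 genes, stacked for each of the 6 samples, with SLRPs in violet and tenascins in green and grey. The whole stack is lower in the LiCl samples, while the green part is larger, from 4.53% to 5.99% of the stack in the controls to 23.1% to 28.4% with LiCl.

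In many of these genes, the same sample of a group was the highest or the lowest. Genes that vary together share such an order, so these counts are a description, and a difference between samples was not tested. Control replicate 1 was the highest control in 7 of 7 SLRPs and in 12 of 14 collagen genes, but in 36.1% of all genes tested. LiCl replicate 2 was the lowest LiCl sample in 6 of 7 SLRPs, in *Tnxb* and in 9 of 14 collagens, against 35.5% of all genes. LiCl replicate 1 was the highest LiCl sample in 6 of 7 SLRPs and in 3 of 14 collagens, against 37.4% of all genes. Replicate 1 was thus mostly the highest sample of both groups in the SLRPs. Skeletal muscle markers also differed between the LiCl samples. The summed level of 8 skeletal muscle markers was 38.2 to 45.1 CPM in the controls and 85.8, 35.7 and 131 CPM in LiCl replicates 1 to 3, and none of the 8 was at 0 in all samples. The sum in LiCl replicate 2 was mostly *Actc1* (29.0 CPM) and *Tnnt1* (3.72 CPM), both below all controls, whereas *Actn2* was at 0.967 CPM, above all controls (0.383 to 0.685 CPM). In this sample, *Tnxb* was at 24.1 CPM and *Tnc* at 108 CPM, both above all controls. With this sample as the only LiCl sample, the log2 fold change was 4.07 for *Tnxb*, 1.14 for *Tnc*, -3.76 for *Ogn* and -1.68 for *Lum*.

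The summed levels of several other marker lists did not overlap between the groups. The summed level of 9 adventitial fibroblast markers was 4801 to 5279 CPM in the controls and 3363 to 3884 CPM with LiCl, with 5 genes lower and 2 higher at an adjusted p under 0.05. Most of this sum was *Col1a1* (means of 2614 and 1984 CPM) and *Col3a1* (1867 and 1211 CPM), which are also counted among the collagens. Of the other markers, *Dpt*, *Mfap5* and *Fbln1* fell, and *Pi16* and *Aldh1a2* did not pass. *Thy1* and *Clec3b* rose by 0.99 and 1.49 on the log2 scale. The 8 mesenchymal markers summed to 2398 to 2698 CPM and 2014 to 2104 CPM, with 4 lower and 2 higher and a median log2 fold change of -0.08. *Pdgfra*, which encodes a growth factor receptor of mesenchymal cells, had the largest difference in level among these, with means of 802 and 444 CPM. On the log2 scale, *Pdgfrb*, *Pdgfra*, *Tbx18* and *Sox9* fell by 0.96, 0.85, 0.58 and 0.25. *Tbx2* and *Tbx3* rose by 0.27 and 0.13 (adjusted p = 0.0022 and 0.038 in edgeR), and *Foxf1* and *Ptch1* did not pass. The 8 epithelial markers summed to 1206 to 1508 CPM and 918 to 960 CPM, with 6 lower and 1 higher, *Epcam* (log2 fold change 0.37, adjusted p = 0.00067). Sums were also lower for smooth muscle (84.8 to 107 CPM and 60.2 to 80.0 CPM; 4 of 7 genes lower), mesothelium (135 to 165 CPM and 97.6 to 108 CPM; 3 of 6 lower, 1 higher) and nephron progenitors and kidney stroma (129 to 130.3 CPM and 100.5 to 111 CPM; 3 of 6 lower, 1 higher). The largest part of the mesothelium sum was *Krt19* (means of 89.2 and 38.9 CPM), which is also in the epithelial list. Of the other mesothelium markers, *Msln* and *Upk3b* fell, *Wt1* rose by 0.65 on the log2 scale, and *Lrrn4* and *Podxl* did not pass. A fall of mesothelium apart from *Krt19* is therefore not read from this sum. Tendon markers, a list that includes *Fmod* and *Tnc*, went from 58.8 to 66.4 CPM to 114 to 137 CPM. The other 4 were *Scx*, *Mkx*, *Thbs4* and *Tnmd*, of which *Scx* fell (log2 fold change -0.46, adjusted p = 0.032 in edgeR), *Mkx* and *Thbs4* did not pass and *Tnmd* was too low to test. Most of the tendon sum was *Tnc* (means of 49.4 and 113 CPM), whereas *Fmod* was lower with LiCl. A rise of tendon markers apart from *Tnc* is therefore not read from this sum. The part of such shifts in the SLRP and tenascin values was not tested.

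Other genes of both families, and 6 further lists of matrix genes, were also chosen with earlier results of these data known, so their counts and p-values are no independent evidence of a direction. Of 13 further SLRP and tenascin genes, 10 could be tested, of which 5 fell and 0 rose at an adjusted p under 0.05 in edgeR. At an unadjusted p under 0.05, 6 were lower and 0 higher, and DESeq2 called 4 lower and 0 higher. The median log2 fold change of this list was -0.84, compared with -0.01 over all genes tested. *Podn*, which encodes podocan, a SLRP of a further class, fell from 9.32 ± 0.970 to 4.81 ± 0.695 CPM (SD, n = 3; log2 fold change -0.95, adjusted p = 0.00059 in edgeR). *Tnr*, which encodes tenascin-R of the nervous system, had 15.7, 7.83 and 12.7 CPM in the controls and 4.34, 7.45 and 5.50 CPM with LiCl. The groups were barely apart, and *Tnr* fell by 1.07 on the log2 scale (adjusted p = 0.0093 in edgeR), whereas *Tnc* and *Tnxb* were higher. With LiCl replicate 2 as the only LiCl sample, *Tnr* did not pass (adjusted p = 0.17). *Chadl*, which encodes a chondroadherin-like protein of cartilage, fell by 1.01 (adjusted p = 0.013). *Tsku*, which encodes tsukushi, a secreted protein that binds BMP and WNT pathway components, was the most abundant of the list and had 27.8 and 27.9 CPM (log2 fold change 0.00, adjusted p = 0.97).

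The position of the SLRP genes in the genome gave a further view of the values, with the order of genes taken from the reference annotation. *Dcn*, *Lum*, *Kera* and *Epyc* follow each other on chromosome 10. *Epyc*, which encodes epiphycan, a class III SLRP like osteoglycin, was covered by 24, 23 and 24 reads in the controls and by 1, 4 and 2 with LiCl, a log2 fold change of -3.22 ± 0.44 (SE, adjusted p = 0.00041 in edgeR). *Kera*, which encodes keratocan, a SLRP of the cornea, was too low to test, with 16, 14 and 9 counts against 7, 4 and 3. All 4 genes of this row thus had their LiCl samples below their controls. On the side of *Dcn*, the next gene is *Gm46240*, for which no identifier was found in the counts. *Btg1*, which lies beyond it, encodes a regulator of cell proliferation and had a log2 fold change of -0.23 (adjusted p = 0.0062).

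On chromosome 13, *Ecm2*, *Aspn*, *Omd* and *Ogn* lie inside the gene *Cenpp*, which runs on the opposite strand and encodes a kinetochore protein. The control samples had 128, 121 and 116 counts of *Cenpp*, and the LiCl samples 168, 155 and 159. It rose by 0.45 on the log2 scale (adjusted p = 0.016 in edgeR), opposite to *Aspn* and *Ogn* within it. Its exons overlap those of *Aspn* in 7 bases. *Ecm2*, which encodes a SLRP-like matrix protein, had 21, 18 and 25 counts and 11, 14 and 12 counts and did not pass (log2 fold change -0.73, adjusted p = 0.076). *Omd*, which encodes osteomodulin, a SLRP of bone, had at most 3 counts in any sample. *Nol8* and *Iars*, which follow after *Ogn*, rose by 0.23 and 0.69 (adjusted p = 0.0073 and 1.4e-05).

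On chromosome 1, *Optc*, *Prelp* and *Fmod* are neighbours. *Optc*, which encodes opticin, a class III SLRP of the eye, was covered by 17, 21 and 19 reads in the controls and by 18, 20 and 13 with LiCl (log2 fold change -0.11, adjusted p = 0.79 in edgeR). In this row, *Fmod* was the gene whose groups were apart. Of the genes beside *Tnxb* and *Tnc*, those tested had log2 fold changes smaller in size than either, and the others were too low to test. *Atf6b*, next to *Tnxb*, had a log2 fold change of 0.17 (adjusted p = 0.019), whereas *C4b* on its other side had at most 6 counts. *Pappa*, next to *Tnc*, encodes a protease of IGF-binding proteins and fell by 0.57 (adjusted p = 0.0099). *Haus7* and *Atp2b3*, on either side of *Bgn*, had -0.50 (adjusted p = 0.00037) and -0.88 (adjusted p = 0.16).

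**Figure D4:**
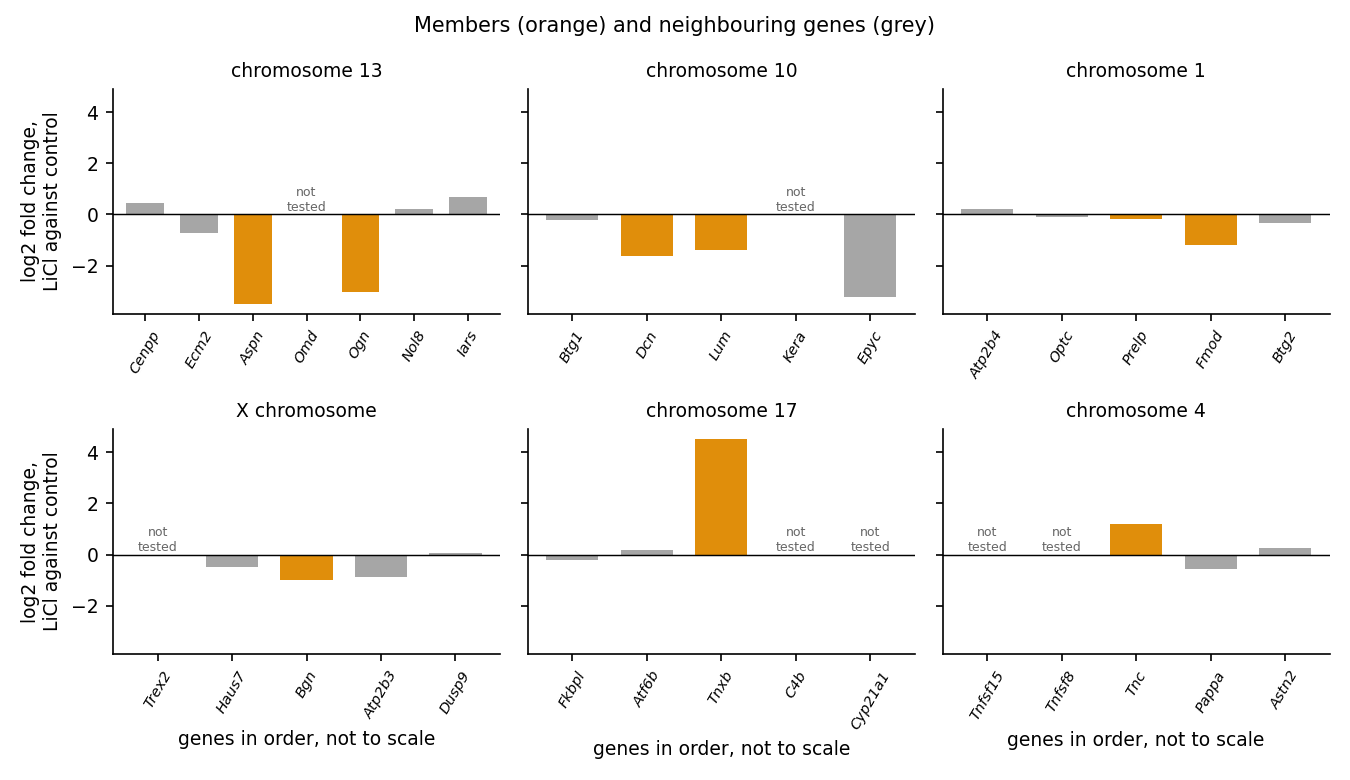
The log2 fold change between LiCl and control of 6 chromosomal regions, with bars for the members of the set in orange and for neighbouring genes in grey, ordered by their start and not to scale. *Cenpp* spans the genes up to *Ogn*. Bars of 4 orange SLRPs and of *Epyc* point down in the regions of chromosomes 13 and 10. The bars beside *Tnxb* and *Tnc*, where tested, are shorter than those of both genes.

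The genes that build the glycosaminoglycan chains of SLRPs had log2 fold changes between -0.97 and 0.54. Of 22 genes for chondroitin and dermatan sulfate synthesis, all tested, 1 rose, 8 fell and 13 did not pass at an adjusted p under 0.05, with a median log2 fold change of -0.08. *Xylt1*, which encodes the enzyme that starts the chain on the core protein, rose from 17.5 ± 3.54 to 25.0 ± 0.318 CPM (SD, n = 3; log2 fold change 0.52, adjusted p = 0.0087 in edgeR). *Dse*, which encodes an epimerase that makes dermatan from chondroitin sulfate, fell from 52.2 ± 4.77 to 39.5 ± 1.47 CPM (log2 fold change -0.40, adjusted p = 0.0018). *Chsy3* and *B3galt6*, which encode enzymes for the chain and for its linker, fell by 0.50 and 0.44.

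Of 9 genes for keratan sulfate synthesis, 8 were tested, and 1 rose, 4 fell and 3 did not pass, with a median of -0.30, whereas DESeq2 called 1 higher and 2 lower. *Chst1*, which encodes a keratan sulfate sulfotransferase, rose from 32.5 ± 1.93 to 47.3 ± 2.84 CPM (log2 fold change 0.54, adjusted p = 0.00022 in edgeR). *B4galt4* and *Fut8* fell by 0.63 and 0.33 (adjusted p = 0.00014 and 0.0012). *Chst5* fell by 0.97 (adjusted p = 0.029), but it did not pass in DESeq2 (adjusted p = 0.050) and lost its call without LiCl replicate 1, LiCl replicate 3, control replicate 1 or control replicate 2 (adjusted p from 0.056 to 0.11).

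The collagens to which SLRPs bind fell in part. Of 14 genes, all tested, 9 fell and 0 rose at an adjusted p under 0.05 in edgeR, the same counts as at an unadjusted p, and DESeq2 called 8 lower and 0 higher. The median log2 fold change was -0.35, compared with -0.01 over all genes tested. *Col14a1*, which encodes a fibril-associated collagen that binds decorin, fell from 188 ± 25.9 to 74.7 ± 9.83 CPM (SD, n = 3; log2 fold change -1.33, adjusted p = 3e-05). *Col12a1*, which encodes a related collagen that binds tenascin-X, had 333, 209 and 257 CPM in the controls and 120, 194 and 171 CPM with LiCl (log2 fold change -0.72, adjusted p = 0.013). *Col11a2* fell by 0.80 (adjusted p = 0.00059). *Col6a1*, *Col6a2* and *Col6a3*, which encode the collagen VI to which biglycan and decorin bind, did not pass, with log2 fold changes of -0.00, 0.17 and -0.23.

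Among 26 ligands and receptors that SLRPs or tenascins bind, 12 fell and 1 rose, with a median of -0.19. *Egfr*, which encodes a receptor bound by decorin and by the EGF-like repeats of tenascin-C, fell from 84.7 ± 10.2 to 35.4 ± 2.57 CPM (SD, n = 3; log2 fold change -1.26, adjusted p = 1e-05 in edgeR). *Tgfb1*, which encodes a growth factor bound by decorin, biglycan and asporin, fell from 22.0 ± 3.84 to 10.9 ± 1.58 CPM (log2 fold change -1.01, adjusted p = 0.00053). *Ccn4*, which encodes a secreted protein that binds decorin and biglycan, fell by 0.92 (adjusted p = 0.0013). *Tlr2*, which encodes an innate immune receptor for biglycan, rose from 5.35 ± 0.957 to 8.92 ± 0.963 CPM (log2 fold change 0.73, adjusted p = 0.0039).

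Of 16 genes for hyaluronan, its receptors and the hyalectans, 13 were tested, of which 2 rose, 4 fell and 7 did not pass, beside 21.1% higher and 22.4% lower among all genes, and the median was -0.01. *Cd44*, which encodes the main hyaluronan receptor, had a mean of 13.4 ± 0.971 CPM (SD, n = 3) in the controls and 88.0, 62.7 and 83.4 CPM with LiCl, and rose by 2.54 on the log2 scale (adjusted p = 1.2e-06 in edgeR). *Hapln1*, which encodes the link protein between hyaluronan and hyalectans, fell from 29.8 ± 2.15 to 11.8 ± 0.0935 CPM (SD, n = 3; log2 fold change -1.34, adjusted p = 2.1e-06). *Has2*, which encodes a hyaluronan synthase, fell by 0.40 (adjusted p = 0.0011), and *Cemip*, which encodes a protein that breaks hyaluronan down, fell by 1.49 (adjusted p = 0.004). *Ncan*, which encodes the hyalectan neurocan, a ligand of tenascins, rose by 0.59 (adjusted p = 0.0068).

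Of 12 proteases that cut SLRPs or tenascins, 10 were tested, of which 2 rose, 2 fell and 6 did not pass, shares close to those over all genes. *Mmp9*, which encodes a gelatinase, rose from 2.45 ± 0.70 to 6.03 ± 0.481 CPM (log2 fold change 1.30, adjusted p = 0.00086 in edgeR). *Htra1*, which encodes a secreted serine protease that cuts several SLRPs, rose by 0.78 (adjusted p = 0.0039). *Adamts5* and *Adamts1*, which encode proteases of large proteoglycans, fell by 1.34 and 0.79 (adjusted p = 0.00014 and 1.5e-05). *Mmp3* had 0 counts in every sample. Over all 7 lists, 103 of 112 genes were tested, of which 7 rose and 44 fell, compared with 21.1% higher and 22.4% lower among all genes.

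**Figure D5:**
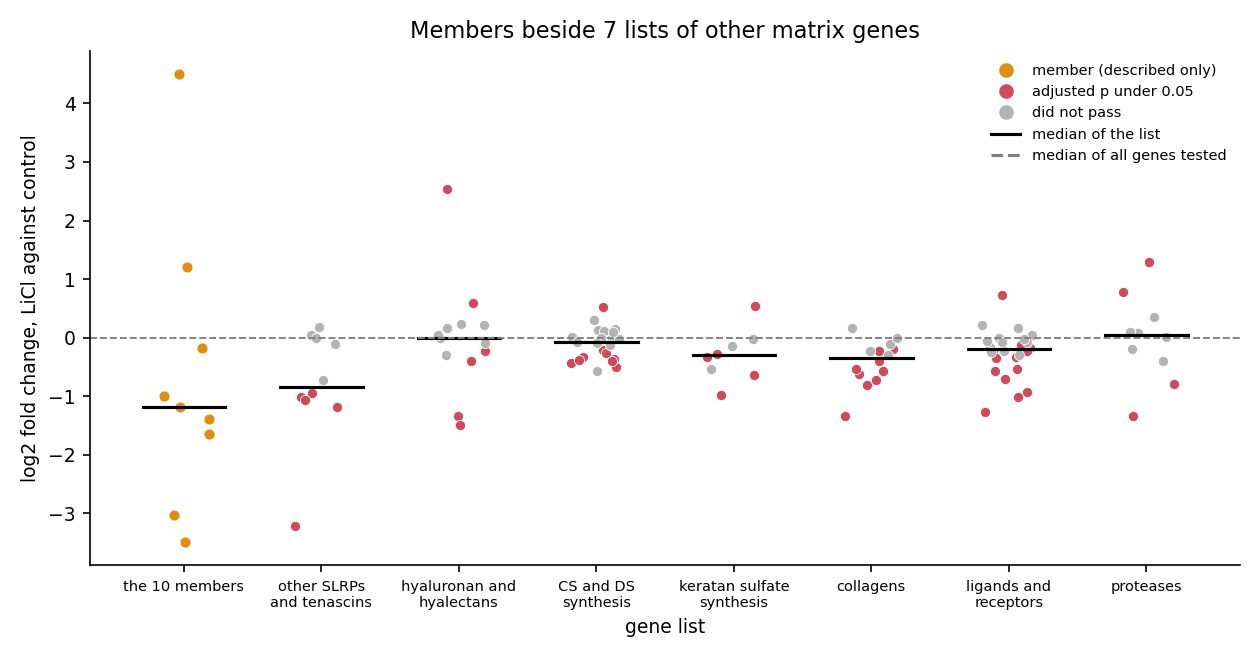
The log2 fold change between LiCl and control of the set (orange) and of 7 lists of other matrix genes, with genes that passed an adjusted p under 0.05 in red, others in grey, and the median of each list as a bar. The median of the set is -1.19, that of the other SLRPs and tenascins -0.84, and those of the other 6 lists lie between -0.35 and 0.05. The dashed line is the median of all genes tested, -0.01.

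WNT signaling was read from 5 of its target genes in the same samples, and 5 of 5 rose at an adjusted p under 0.05, beside 21.1% of all genes. These 5 were chosen with earlier results of these data known and are no survey of WNT targets. *Axin2*, *Nkd1*, *Lef1* and *Sp5* had log2 fold changes of 0.92, 0.42, 0.49 and 0.96. *Notum*, which encodes a WNT deacylase, had 21.8, 22.9 and 18.1 CPM in the controls and 98.5, 71.7 and 85.7 CPM with LiCl. LiCl replicate 2 was also the lowest LiCl sample in this gene. The log2 fold changes of the 5 genes were between 0.42 and 2.03, so those of *Tnxb*, *Aspn* and *Ogn* were larger in size than any of them.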

How the data were processed

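The sample labels gave the condition and the replicate number of each sample. The authors deposited raw counts per gene for 3 control and 3 LiCl samples. Libraries were poly-A enriched and stranded. The methods of the study name HISAT2 and featureCounts on GRCm39, whereas the submitters' processing notes list fastp 0.23, STAR 2.7, featureCounts 2.0 and DESeq2 1.40. The annotation release and strand setting are not given in the sources used here. The deposited FPKM values equal the counts divided by DESeq2's size factors and by 1 constant per gene, to a relative spread of 5.43e-08 over 13480 genes. Symbols came from GENCODE M21 for GRCm38, in which 52073 of 56748 identifiers were found.

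Groups were compared on the counts with the quasi-likelihood F test of edgeR 4.0.16 (R 4.3.3), after filterByExpr and TMM scaling, and p-values were adjusted over all genes tested by the Benjamini-Hochberg method. The other settings tried were scaling by RLE factors or by library size alone, a test with DESeq2 1.42.0, the absence of a filter or a minimum of 10 counts in all samples, a block for the replicate number, the omission of each sample and of LiCl replicates 1 and 3 together, and limma 3.58.1 on log2 FPKM, with a pseudocount of 1 or 0.1 and a mean of at least 0.5 FPKM, or with a pseudocount of 1 and all genes. The scripts were tested on simulated counts.

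The 10 genes and all lists were chosen with earlier results of these data known. Of each list, up to 3 genes per direction are named, those with the largest log2 fold change at an adjusted p under 0.05 and a mean of at least 1 CPM. The WNT targets and the 2 nearest protein coding genes on each side of the 10 genes were also to be named, and a selection of them is given. *Tsku*, the collagen VI genes, *Mmp3*, *Tnxa* and the other overlapping genes, and the cell type markers were picked after their values were seen. No sample was a copy of another, with a chi-square per degree of freedom of 5.93 to 14.5 between samples of a group.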

Additional observations from a re-analysis of the deposited data

How the results depend on the processing

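The direction of the 9 tested SLRP and tenascin genes was kept in every setting run, except that *Aspn* could not be tested with at least 10 counts in all samples. At the fold change threshold, 2 were higher in all settings and 4 to 6 lower. There were 6 with library size only, with the replicate block, without LiCl replicate 1, LiCl replicate 3 or control replicate 2 and with LiCl replicate 2 alone, since *Bgn* passed. There were 4 with at least 10 counts in all samples and with limma on log2(FPKM + 1). The *Aspn* log2 fold change, *Ogn* log2 fold change and *Tnxb* log2 fold change were -1.10, -1.71 and 1.62 on log2(FPKM + 1), where the pseudocount understates them.

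Over all genes tested, same-numbered samples did not deviate together (correlations 0.00685, -0.142 and 0.118). The labels do not say whether same-numbered samples were collected together, and these correlations cannot settle it. With the replicate block, 478 genes were higher and 801 lower by the fold change rule, and it changed no call of a named gene. Over all genes, the genes higher after LiCl were 498 by the fold change rule, and 177 with limma on log2(FPKM + 1) or 171 without its filter. The genes lower after LiCl were 835, and 141, 139 and, on log2(FPKM + 0.1), 430. The genes higher after LiCl at adjusted p alone were 3844 and the genes lower after LiCl at adjusted p alone 4071, and 2014 and 2117 with LiCl replicate 2 alone, where the lone sample is assumed to vary like the controls. The matrix list genes higher after LiCl were 7, and 11 without a filter on low counts. The matrix list genes lower after LiCl were 44, and 25 with LiCl replicate 2 alone and 29 with limma on log2(FPKM + 1) without filter. The cause of these differences was not tested. Of the named genes of other lists, none reversed. Under all alternatives together, 483 of their values kept their call and 25 no longer passed an adjusted p under 0.05, of which 12 with LiCl replicate 2 alone. *Aspn* in LiCl replicate 2 and all values of *Tnn* rest on 3 counts or fewer.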
